A study of Mus musculus with 12 samples.

Results

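The 10 core genes of the circadian clock (Arntl, Clock, Per1, Per2, Per3, Cry1, Cry2, Nr1d1, Nr1d2 and Dbp) were examined by RNA-Seq in cultured mouse cardiac fibroblasts with and without Smad7. The genes were taken by name from the 35275 genes of the deposited table, a rule that uses names alone. All 10 had enough reads to be among the 15150 genes tested. Cells came from hearts of 12-week-old C57BL/6 mice with a floxed Smad7 gene and were used at passage 2. Control cells received a GFP adenovirus and Smad7-KO cells a Cre-expressing adenovirus, each for 48 hours at 100 MOI, so both kinds of cell carried the floxed gene and an adenovirus. The GFP virus is that of the labels, whereas the study's methods describe the control virus as empty. After the medium was replaced, cells were left without treatment or were stimulated with TGF-β1 at 10 ng/ml. The stimulation time is given as 2 hours in one label field and 4 hours in another. Control and Smad7-KO cells, each with and without TGF-β1, made 4 conditions of 3 libraries. The labels do not give the time of day of harvest for any library. In cells that keep their own rhythm, a difference in level and a difference in phase cannot be told apart in samples taken once.

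The mammalian clock is a transcriptional feedback loop that runs in nearly every cell, including fibroblasts in culture. The proteins of Arntl (also called Bmal1) and Clock pair up and switch on genes through E-box sequences. Among these targets are the Period and Cryptochrome genes, whose proteins return to the nucleus and restrain the pair. A second loop joins the nuclear receptors Nr1d1 and Nr1d2 (Rev-erb alpha and beta), which repress Arntl through ROR elements, with the Ror receptors, which activate it. Dbp, a further E-box target, is an activator that binds D-box sequences in genes such as Per3, so it carries the clock signal to its outputs.

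Promoter sequences of RefSeq (GRCm38.p6), covering 250 bases before to 50 bases after the transcript start, were found for 9 of the 10 genes, and 4 letter patterns of the clock were looked for on both strands. The E-box was CACGTG, the E-prime box CACGTT, the D-box TTANGTAA, and the ROR element either ANTAGGTCA or ANTGGGTCA. Of 32851 promoter windows in the table, 7.15% held the E-box, 4.68% the E-prime box, 2.32% the D-box and 1.45% the ROR element. Cry1 and Per1 held the E-box, Cry1, Cry2 and Nr1d1 the E-prime box, Per3 the D-box and Arntl the ROR element. The sequences shown are those around matches in 3 of the 4 members that changed in the comparisons, and in Bhlhe41, a repressor of the loop that rose with TGF-β1. Capitals mark the match, and a match describes letters only. The Arntl match lies just after the transcript start and the others before it.
Arntl, chr7:113207529-113207557, + strand, ROR element: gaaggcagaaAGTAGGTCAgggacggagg
Per3, chr4:151044666-151044915, - strand, D-boxes: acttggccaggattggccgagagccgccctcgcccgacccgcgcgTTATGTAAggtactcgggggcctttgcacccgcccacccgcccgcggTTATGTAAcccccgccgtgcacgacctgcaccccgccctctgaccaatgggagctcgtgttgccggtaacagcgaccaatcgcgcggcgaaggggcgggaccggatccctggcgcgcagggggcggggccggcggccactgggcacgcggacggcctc
Cry2, chr2:92434200-92434265, - strand, E-prime box: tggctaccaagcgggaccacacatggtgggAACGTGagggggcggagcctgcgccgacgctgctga
Bhlhe41, chr6:145865538-145865603, - strand, E-box: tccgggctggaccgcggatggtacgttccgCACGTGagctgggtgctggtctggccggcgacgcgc
The Per3 promoter held 2 copies of the D-box, at 205 and 158 bases before the start, and 27 of the 32851 windows (0.0822%) held 2 or more. The Smad elements CAGACA and GTCTAGAC were also looked for. CAGACA was present in Nr1d2 and Per1 and in 21% of all windows, and GTCTAGAC in none of the members and in 0.213% of all windows. The cyclic AMP element TGACGTCA was in none of the members and in 1.79% of windows.

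Totals were 19056916 to 25371321 counts per library. Smad7 itself checked the labels, with a log2 fold change of -1.34 ± 0.0938 (SE) in unstimulated and -0.92 ± 0.0921 in TGF-β1-stimulated Smad7-KO cells (edgeR, Benjamini-Hochberg adjusted p = 9.02e-06 and 1.15e-04), so Smad7 reads remained in cells given Cre. All 10 fibroblast markers were detected in every library. They summed to 7425 to 11496 CPM (counts scaled to library size) in control and 8662 to 10123 CPM in Smad7-KO libraries. In each Smad7-KO comparison 2 of these 10 were higher and 2 lower. The summed level of 10 endothelial markers was 280 to 332 CPM in control libraries and 46.5 to 58.7 in Smad7-KO libraries. That of 7 mesothelial markers was 263 to 310 CPM in control and 168 to 212 in Smad7-KO libraries. That of 9 macrophage markers was 13088 to 20900 CPM in control and 18235 to 20847 in Smad7-KO libraries, and 10 cardiomyocyte markers summed to 18.9 to 78.2 CPM over all libraries. Of the 10 endothelial markers 7 were lower and 1 higher in each Smad7-KO comparison and 1 was lower with TGF-β1, and of the 9 macrophage markers 5 (unstimulated) and 4 (stimulated) were higher in Smad7-KO. Of all tested genes 13.7% were lower and 12.1% higher in unstimulated Smad7-KO cells, and 7.23% and 5.72% in stimulated ones. With TGF-β1 3.33% were lower in control and 4.9% in Smad7-KO cells. In bulk samples, fewer cells of a type and less RNA per cell cannot be told apart. Unstimulated control libraries stood apart from each other, with a biological coefficient of variation of 0.335 against 0.053 to 0.137 in the other conditions. Their levels followed gene length with slopes of -0.32 (library 2) and 0.31 (library 3) on the log2 scale. Smaller slopes of 0.13 and -0.13 were found in TGF-β1 control libraries 1 and 2, and of -0.09 in TGF-β1 Smad7-KO library 3. Of the genes called in the unstimulated Smad7-KO comparison, 13.4% of those among the shortest genes and 79.2% of those among the longest (tested genes in 3 equal classes) were higher in Smad7-KO. In the stimulated comparison these shares were 19.7% and 63.4%. The part of these features in the results on clock genes was not tested, except where values without unstimulated control libraries or without the length trend are given.

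Per kilobase of gene, Dbp and Nr1d2 were the most abundant of the 10 genes in each condition. In unstimulated control cells Dbp averaged 35.4 ± 3.11 FPKM, a unit scaled by gene length and library total (SD, n = 3), and Nr1d2 18.3 ± 2.91, and their libraries did not overlap. Nr1d1, Per1, Per3, Cry2 and Clock followed at 11.3, 9.24, 8.03, 7.67 and 6.31 FPKM, and each overlapped its neighbour in that order. Arntl (2.76 ± 0.458 FPKM), Cry1 (2.16 ± 0.110) and Per2 (2.01 ± 0.738) were lowest. All Arntl libraries lay above those of Cry1, whereas Per2 overlapped both. In TGF-β1 control cells the gap at the top was gone, with Dbp at 18.7 ± 1.41 FPKM and Nr1d2 at 17.2 ± 1.15, whose libraries overlapped. Arntl was then at 5.47 ± 0.450 FPKM and overlapped Per3 (5.52 ± 0.702), the next gene above it. In unstimulated Smad7-KO cells Per3 came next after Dbp and Nr1d2 at 12.1 ± 0.953 FPKM, above Nr1d1 (9.92 ± 0.941) without overlap. In TGF-β1 Smad7-KO cells Nr1d2 (19.3 ± 0.829 FPKM) and Dbp (17.8 ± 2.19) overlapped at the top, and Arntl had reached 6.02 ± 0.768 FPKM, close to Per1 (5.85 ± 0.434) and Cry2 (5.36 ± 0.419).

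**Figure D1:**
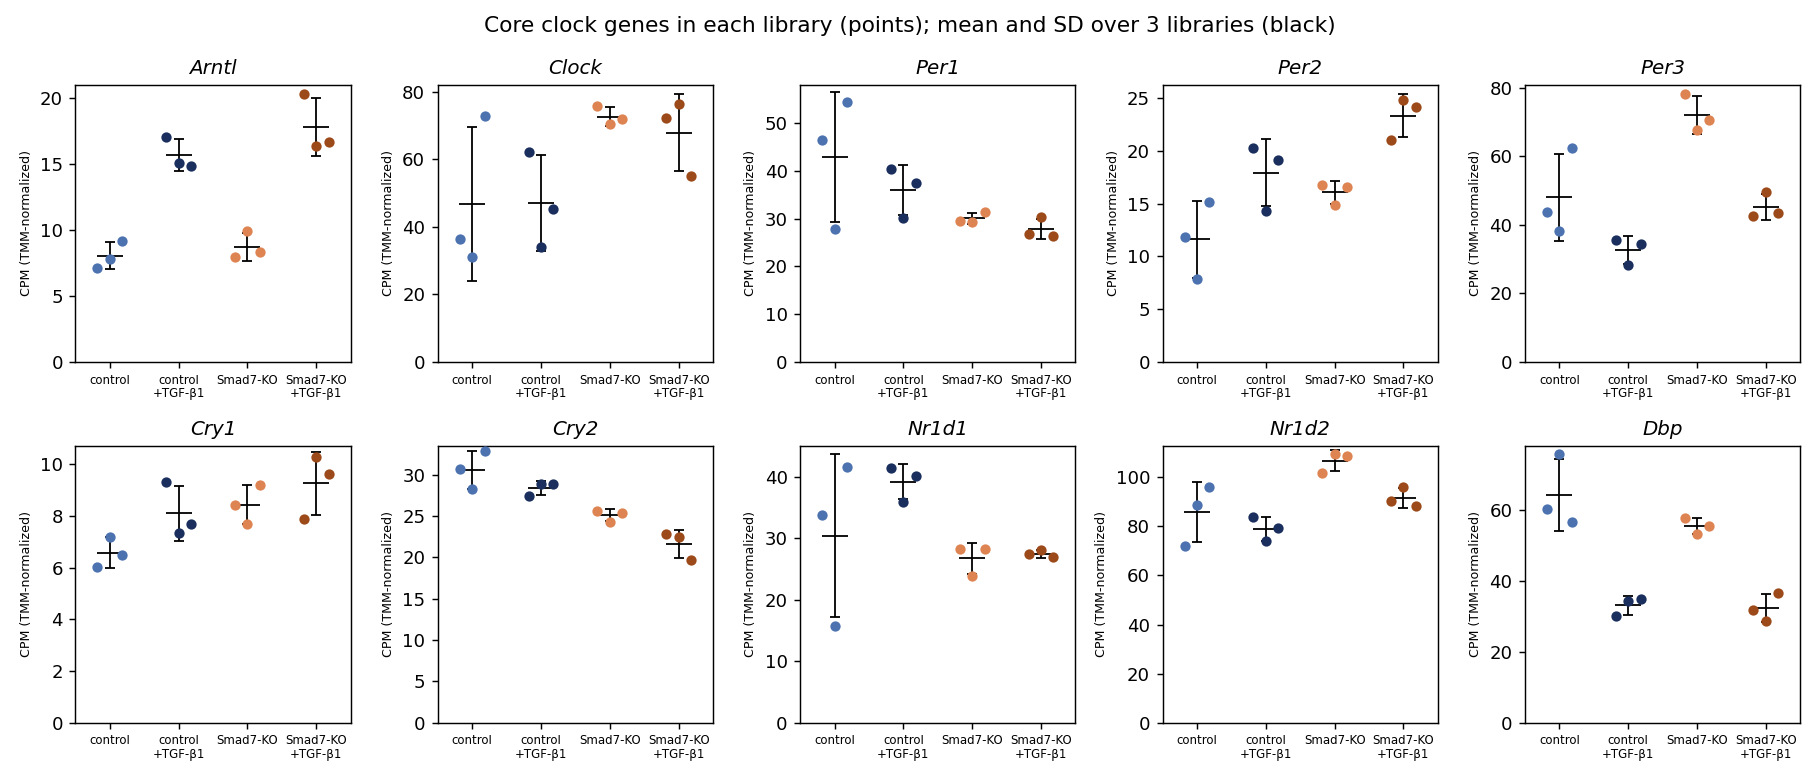
Level of each of the 10 core clock genes in every library, in CPM scaled by TMM, with 1 panel per gene, all axes from 0, points for libraries and black bars for the mean and SD over 3 libraries. Arntl is higher and Dbp lower in all TGF-β1 libraries of both genotypes, with no overlap, whereas Clock and Nr1d1 spread widely within the unstimulated control cells.

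TGF-β1 stimulation moved the activator Arntl and the output gene Dbp in opposite directions, and it did so in control and in Smad7-KO cells. Arntl rose 1.95-fold in control and 2.04-fold in Smad7-KO cells, and Dbp fell by 48.4% in control cells and 41.7% in Smad7-KO cells. In control cells 1 of the 10 genes rose (5.04% of all tested genes rose) and 1 fell (3.33% fell), whereas 8.37% of all tested genes changed. In Smad7-KO cells 1 rose (5.33% of all tested genes) and 2 fell (4.9%), Per3 beside Dbp, whereas 10.2% of all changed. The median log2 fold change over the 10 was -0.051 in control and -0.10 in Smad7-KO cells, beside -0.032 and -0.010 over all tested genes. Libraries of stimulated and unstimulated cells did not overlap for 4 of the 10 genes in control cells (19.8% of all tested genes) and for 6 in Smad7-KO cells (39% of all tested genes).

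Arntl, the DNA-binding partner of Clock, was at 7.13, 7.83 and 9.15 CPM in the unstimulated control libraries and at 17.1, 15.1 and 14.9 CPM in the TGF-β1 control libraries. Every stimulated library lay above every unstimulated one. The difference was 0.96 ± 0.146 on the log2 scale (edgeR, Benjamini-Hochberg adjusted p = 0.00129). In Smad7-KO cells Arntl was at 7.93, 9.91 and 8.29 CPM without and at 20.3, 16.4 and 16.7 CPM with TGF-β1. Again the libraries did not overlap, with a log2 fold change of 1.03 ± 0.145 (edgeR adjusted p = 0.000667). Each of the 22 other settings tried kept both calls, with log2 fold changes of 0.79 to 1.14 in control and 0.80 to 1.13 in Smad7-KO cells. Clock, the histone acetyltransferase partner, did not follow Arntl. It was at 36.4, 31.0 and 72.9 CPM in unstimulated and 62.1, 33.9 and 45.2 CPM in TGF-β1 control libraries, so the groups overlapped widely. Its log2 fold change was 0.0074 ± 0.296 (95% interval -0.64 to 0.66) in control and -0.10 ± 0.295 (-0.74 to 0.55) in Smad7-KO cells, and its direction in control cells turned with DESeq2, with its size factors and with the length trend removed.

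Dbp, the D-box activator, was at 60.3, 75.7 and 56.4 CPM in unstimulated and at 30.1, 34.3 and 34.9 CPM in TGF-β1 control libraries. No library of one group reached the other. Its log2 fold change was -0.95 ± 0.132 (edgeR adjusted p = 0.000697). In Smad7-KO cells the values were 57.8, 53.1 and 55.5 CPM without and 31.9, 28.7 and 36.5 CPM with TGF-β1. The log2 fold change there was -0.78 ± 0.131 (edgeR adjusted p = 0.00235), again without overlap. Both calls held in all 22 other settings, with log2 fold changes of -1.03 to -0.82 in control and -0.88 to -0.70 in Smad7-KO cells.

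The 3 Period genes, which encode repressors of the loop, differed among themselves. Per3 was at 78.3, 67.6 and 70.6 CPM in unstimulated and at 42.5, 49.5 and 43.5 CPM in stimulated Smad7-KO libraries, with no overlap. It fell by 37.4% (log2 fold change -0.68 ± 0.169, edgeR adjusted p = 0.0245). In control cells Per3 was at 43.7, 38.1 and 62.3 CPM without and 35.6, 28.1 and 34.4 CPM with TGF-β1, with every stimulated library below. That difference of -0.56 ± 0.17 did not pass (edgeR adjusted p = 0.0708). The call in Smad7-KO cells was lost when any 1 of the 6 libraries of that comparison was left out (log2 fold change -0.75 to -0.61, edgeR adjusted p 0.0512 to 0.11), and held in the other 16 settings. In control cells Per3 passed in 3 of 22 other settings, by DESeq2 on all 12 libraries (-0.57, DESeq2 adjusted p = 0.0208), with the length trend removed (-0.67, edgeR adjusted p = 6.02e-05) and without unstimulated control library 2 (-0.70, edgeR adjusted p = 0.00967). With 1 library left out the value in control cells ran from -0.70 to -0.32.

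Per2 had values on the other side of 0. It was at 11.9, 7.88 and 15.2 CPM in unstimulated and 20.3, 14.4 and 19.2 CPM in TGF-β1 control libraries, which overlapped, and at 16.8, 14.9 and 16.6 against 21.0, 24.8 and 24.2 CPM in Smad7-KO cells, which did not. The log2 fold changes of 0.62 ± 0.209 and 0.54 ± 0.207 did not pass (edgeR adjusted p = 0.104 and 0.149). With the length trend removed they were 0.52 and 0.58 and passed (edgeR adjusted p = 0.00766 and 0.00281). With 1 library left out they ran from 0.41 to 0.86 in control and from 0.48 to 0.61 in Smad7-KO cells. Per2 passed in 3 of 22 other settings in control cells, 1 of them without unstimulated control library 3 at 0.86 (edgeR adjusted p = 0.011). In Smad7-KO cells it passed in 5 of 22, 1 of them without unstimulated control library 2 at 0.55 (edgeR adjusted p = 0.0196). That control library enters the comparison within Smad7-KO cells only through the shared spread. Per1, which many signals induce quickly, had log2 fold changes of -0.26 ± 0.201 in control and -0.11 ± 0.203 in Smad7-KO cells, neither of which passed. Without unstimulated control library 2 the value in control cells was -0.49 (edgeR adjusted p = 0.0276). Over the fits with 1 library left out that value ran from -0.49 to -0.046.

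Both Cryptochromes and both Rev-erb genes stayed below the threshold after TGF-β1. Cry1 had log2 fold changes of 0.30 ± 0.153 and 0.13 ± 0.151 in control and Smad7-KO cells, and Cry2 of -0.11 ± 0.0983 and -0.22 ± 0.0989. For Nr1d1 they were 0.36 ± 0.256 and 0.038 ± 0.257, and for Nr1d2 -0.12 ± 0.112 and -0.22 ± 0.112. In fits to only the 6 Smad7-KO libraries Nr1d2 passed (-0.21 by edgeR and by DESeq2, adjusted p = 0.0264 and 0.0241). Nr1d1 was at 33.8, 15.8 and 41.6 CPM in unstimulated control libraries, so library 2 alone was low, and at 41.4, 36.0 and 40.2 CPM in TGF-β1 control libraries. The 95% intervals in control cells reached from -0.20 to 0.92 for Nr1d1 and from -0.36 to 0.13 for Nr1d2, so the interval for Nr1d1 does not show that its level was alike.

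**Figure D2:**
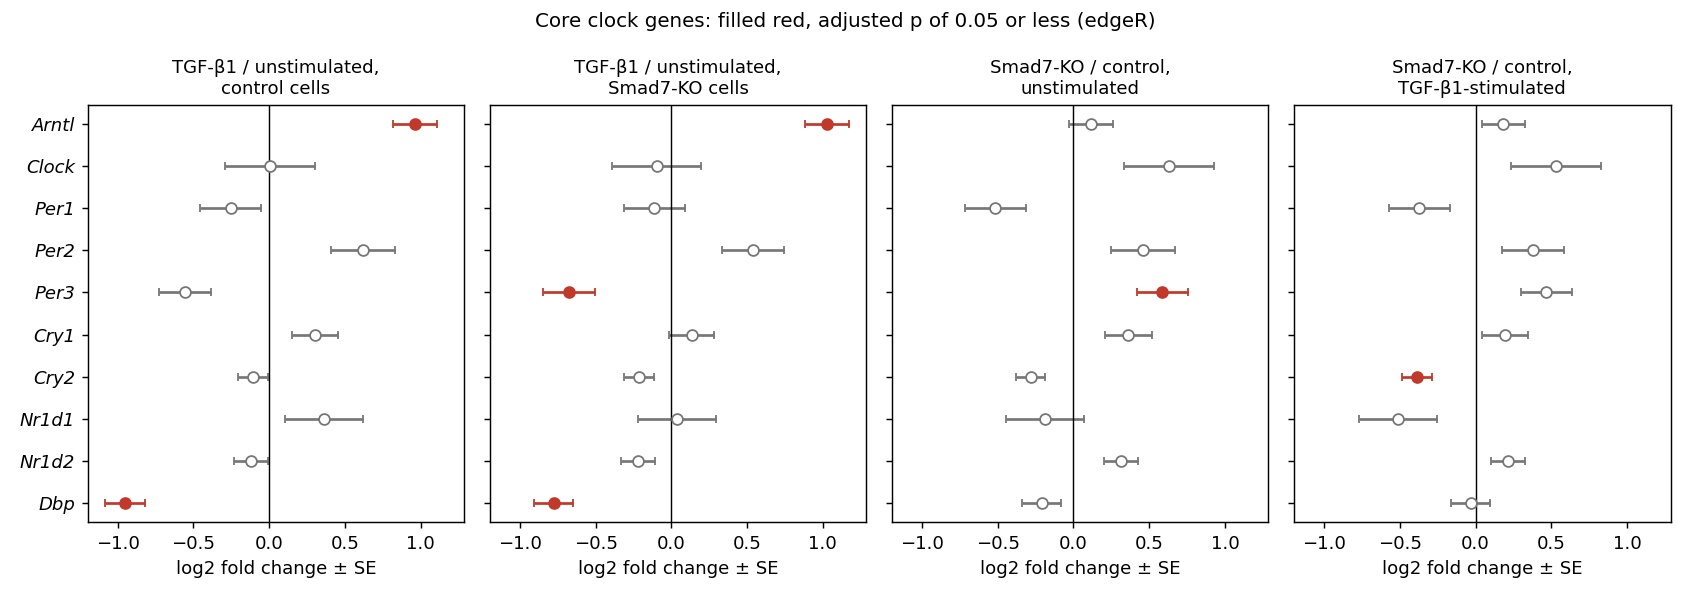
Log2 fold change (x axis) of the 10 core clock genes in each of 4 comparisons, with bars for the SE from edgeR and filled red points for an adjusted p of 0.05 or less. Arntl lies at 0.96 and 1.03 and Dbp at -0.95 and -0.78 in both TGF-β1 comparisons, whereas in the Smad7-KO comparisons only Per3 (unstimulated) and Cry2 (TGF-β1-stimulated) are filled.

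In the main fit Smad7 loss gave a single call in each state of stimulation, Per3 without and Cry2 with TGF-β1. That number changed with the setting, and each of these genes had the same direction, without overlap of libraries, in both states. In unstimulated cells Per3 was 50.1% higher in Smad7-KO, and the other 9 did not pass. So 1 of 10 rose beside 12.1% of all tested genes and 0 fell beside 13.7%, and 25.8% of all changed. In TGF-β1-stimulated cells Cry2 was 0.763-fold the control level, so 1 of 10 fell beside 7.23% of all tested genes and 0 rose beside 5.72%, and 13% of all changed. Libraries of the genotypes did not overlap for 4 of the 10 genes in unstimulated cells (41.3% of all tested genes) and for 5 in stimulated cells (44.9%). The median log2 fold changes over the 10 were 0.22 and 0.19, beside -0.015 and -0.021 over all tested genes.

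Per3 stood at 43.7, 38.1 and 62.3 CPM in control and 78.3, 67.6 and 70.6 CPM in Smad7-KO libraries without stimulation. All Smad7-KO libraries were above all control libraries, by 0.59 ± 0.169 on the log2 scale (edgeR adjusted p = 0.030). At 5999 bases Per3 is longer than 88.4% of tested genes, and with each library's trend on length removed the difference was 0.24 (edgeR adjusted p = 0.034). In fits to only the 6 libraries of the comparison the call was lost (edgeR adjusted p = 0.119, DESeq2 adjusted p = 0.0562). It was also lost without unstimulated control library 1 (0.54) or 2 (0.45) and without unstimulated Smad7-KO library 1 (0.53), 2 (0.63) or 3 (0.60), with edgeR adjusted p of 0.0588 to 0.102. Under TGF-β1 Per3 was at 35.6, 28.1 and 34.4 CPM in control and 42.5, 49.5 and 43.5 CPM in Smad7-KO libraries, a difference of 0.47 ± 0.169 that did not pass (edgeR adjusted p = 0.0941) though no libraries overlapped. It passed in 7 of 22 other settings. Among these were the fits to only the 6 stimulated libraries (0.47, edgeR adjusted p = 0.0125, and 0.48, DESeq2 adjusted p = 0.00235). It also passed without unstimulated control library 2 (0.48, edgeR adjusted p = 0.0214) or library 3 (0.47, edgeR adjusted p = 0.0141), which enter that comparison only through the shared spread. With the length trend removed it passed with a smaller value (0.27, edgeR adjusted p = 0.0245).

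Cry2, a repressor that acts with the Period proteins, was at 27.4, 28.8 and 28.9 CPM in TGF-β1 control and at 22.8, 22.4 and 19.7 CPM in stimulated Smad7-KO libraries. The groups did not overlap, and the log2 fold change was -0.39 ± 0.0987 (edgeR adjusted p = 0.0242). The call was lost without a filter on low counts (edgeR adjusted p = 0.102) and with the replicate number as a block (edgeR adjusted p = 0.051). It was also lost without TGF-β1 control library 2 (-0.37) or 3 (-0.38) and without TGF-β1 Smad7-KO library 1 (-0.43), 2 (-0.41) or 3 (-0.32), with edgeR adjusted p of 0.0587 to 0.104. In unstimulated cells Cry2 was at 30.7, 28.3 and 32.8 CPM in control and 25.7, 24.3 and 25.4 CPM in Smad7-KO libraries, also without overlap. That difference of -0.28 ± 0.0985 lay just outside the threshold (edgeR adjusted p = 0.0531), and passed by DESeq2 on all 12 libraries (-0.28, DESeq2 adjusted p = 0.019), with the length trend removed (-0.43, adjusted p = 0.00208) or without unstimulated control library 2 (-0.33, adjusted p = 0.0286). Its relative Cry1 had values of the opposite sign, 0.36 ± 0.153 and 0.19 ± 0.151, neither of which passed (edgeR adjusted p = 0.092 and 0.412).

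The remaining members of the loop gave no call for Smad7 loss in the main fit. Per1 was at 46.3, 27.9 and 54.3 CPM in control and 29.4, 29.3 and 31.4 CPM in Smad7-KO libraries, so control library 2 alone was as low as the Smad7-KO libraries. Its log2 fold change of -0.52 ± 0.202 did not pass (edgeR adjusted p = 0.076) and was -0.74 without unstimulated control library 2 (adjusted p = 0.002) and -0.72 with the length trend removed (adjusted p = 9.3e-04). Nr1d1 behaved likewise with that library, at -0.19 ± 0.257 with it and -0.49 without it (edgeR adjusted p = 0.589 and 0.0118). Nr1d2, at 72.2, 88.9 and 96.2 against 102, 110 and 109 CPM, was higher in every Smad7-KO library by 0.32 ± 0.112, just outside the threshold (edgeR adjusted p = 0.0565). It passed in 5 of 22 other settings, 1 of them without unstimulated control library 3 (0.41, edgeR adjusted p = 0.0087), but with the length trend removed Nr1d2 was at 0.077 (edgeR adjusted p = 0.603). Clock, the longest of the 10 genes at 7478 bases, was 0.63 ± 0.297 higher (edgeR adjusted p = 0.122), 1.11 higher without control library 3 (adjusted p = 0.00185), and 0.24 higher with the length trend removed (adjusted p = 0.177). Per2 was 0.46 ± 0.209 higher (edgeR adjusted p = 0.114), 0.70 higher without that library (adjusted p = 0.0106), and 0.15 higher with the length trend removed (adjusted p = 0.36). Leaving out 1 library moved these unstimulated values both ways, over -0.74 to -0.31 for Per1 and -0.49 to 0.11 for Nr1d1. The ranges were 0.22 to 0.41 for Nr1d2, 0.41 to 1.11 for Clock and 0.25 to 0.70 for Per2. The values of Per1, Clock, Per2 and Nr1d2 moved with the length trend as well.

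In stimulated cells Per1 (-0.37 ± 0.202) and Nr1d1 (-0.51 ± 0.256) were below and Clock (0.53 ± 0.296), Per2 (0.38 ± 0.206) and Nr1d2 (0.21 ± 0.112) above the control level, and none passed (edgeR adjusted p 0.211 to 0.26). Without unstimulated control library 2 Per1 passed at -0.35 and Nr1d1 at -0.49 (edgeR adjusted p = 0.0394 and 0.00495), and with the length trend removed Per1 passed at -0.48 (edgeR adjusted p = 0.0124). Without that trend Clock was at 0.28, Per2 at 0.20 and Nr1d2 at 0.097, each smaller, and none of them passed (edgeR adjusted p 0.141 to 0.551). Nr1d1 libraries did not overlap, at 41.4, 36.0 and 40.2 CPM in control and 27.4, 28.1 and 26.9 CPM in Smad7-KO. Unstimulated control libraries 2 and 3 were also left out together, a choice made after the data were seen. In stimulated cells Per1 was then at -0.36, Nr1d1 at -0.50, Clock at 0.54, Per2 at 0.39 and Nr1d2 at 0.22. That fit leaves 1 unstimulated control library, assumed to vary like the other conditions, so the number of genes it called is not given by itself. It is 1 of the 22 other settings, so its calls enter the counts and ranges over settings. Arntl and Dbp, the members that TGF-β1 moved most, had no call for Smad7 loss. In unstimulated and stimulated cells Arntl was at 0.12 ± 0.147 and 0.18 ± 0.142, and Dbp at -0.21 ± 0.130 and -0.033 ± 0.131. The 95% intervals were -0.21 to 0.44 and -0.13 to 0.49 for Arntl, and -0.49 to 0.075 and -0.32 to 0.25 for Dbp. These intervals include 0 and leave room for differences up to those bounds.

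Whether Smad7 loss altered the TGF-β1 response was tested by the interaction. By edgeR 0 of the 10 clock genes passed, and 0 had an unadjusted p under 0.05. DESeq2 and limma also called 0. Among all tested genes 3 passed (0.0198%). The Arntl response differed between genotypes by 0.066 ± 0.205 (95% interval -0.38 to 0.51) on the log2 scale and the Dbp response by 0.18 ± 0.185 (-0.23 to 0.58), intervals that include 0 and leave room for differences up to those bounds. For Per3, called with TGF-β1 in Smad7-KO cells alone, the responses differed by -0.12 ± 0.239 (-0.64 to 0.40), and the test of that difference did not pass (edgeR adjusted p = 0.98).

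**Figure D3:**
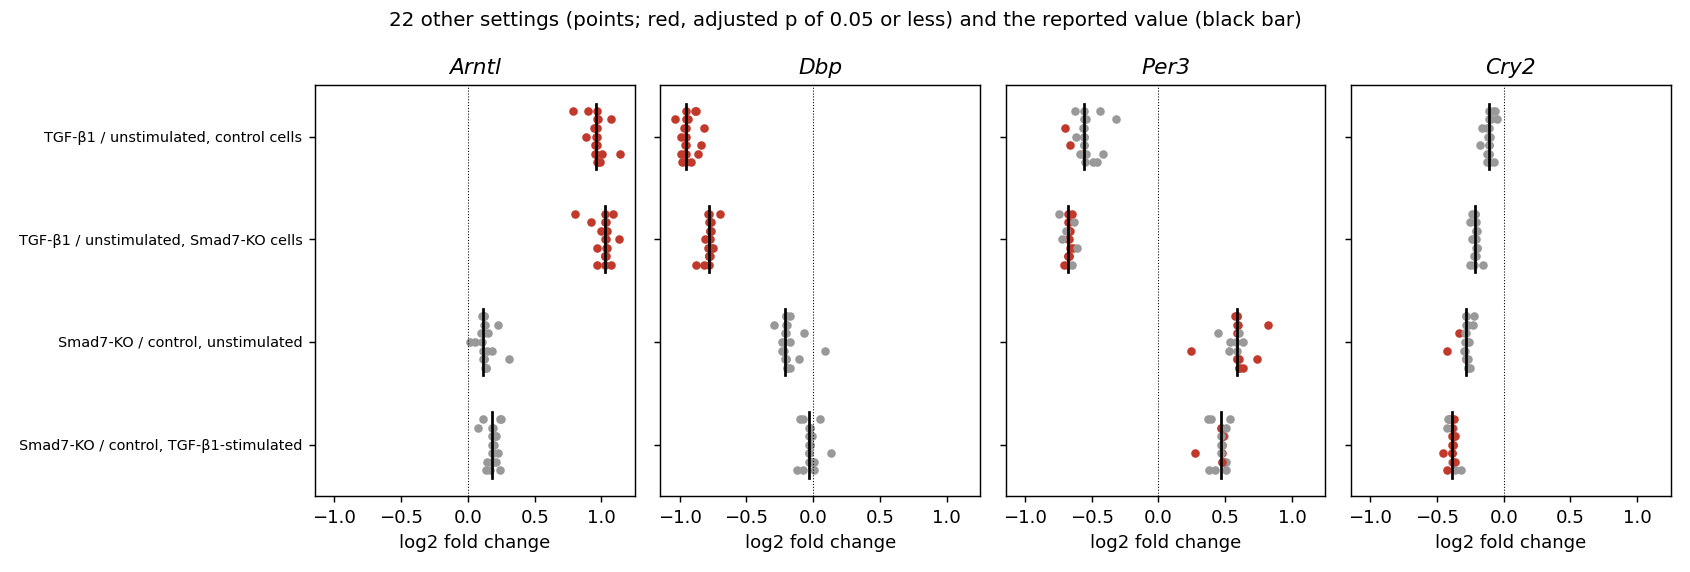
Log2 fold change (x axis) of Arntl, Dbp, Per3 and Cry2 in 4 comparisons (rows) under 22 other settings, with 1 point per setting, red for an adjusted p of 0.05 or less, and a black bar for the reported value. All points for Arntl and Dbp in both TGF-β1 rows are red, whereas Per3 and Cry2 in the Smad7-KO rows mix red and grey points.

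Ratios between members within a library do not depend on the scaling of that library, and 7 pairs were looked at after the main values were known. With 3 libraries against 3 the smallest two-sided exact permutation p is 0.1, so no ratio could pass 0.05. The ratio of Dbp to Arntl, an output over the activator that drives it, was 10.0 to 15.7 in unstimulated and 2.86 to 3.81 in TGF-β1 control libraries, both in FPKM. In Smad7-KO cells it was 8.70 to 11.8 and 2.55 to 3.56. Stimulated libraries were at 0.265 (control) and 0.285 (Smad7-KO) times the unstimulated ratio, with no overlap (exact p = 0.1 in each).

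The ratio of Per1 to Per2 was highest in unstimulated control and lowest in TGF-β1 Smad7-KO cells. In control cells it was 4.42 to 4.87 without and 2.43 to 2.62 with TGF-β1. In Smad7-KO cells it was 2.18 to 2.46 without and 1.36 to 1.59 with TGF-β1. The ranges of TGF-β1 control and unstimulated Smad7-KO overlapped, and no other ranges did. Smad7-KO libraries were at 0.51 times the control ratio without and 0.593 times with TGF-β1 (exact p = 0.1 in each). The 3 unstimulated control libraries, whose Per1 and Per2 levels ranged from 27.9 to 54.3 and from 7.88 to 15.2 CPM, lay within a narrow band of this ratio. Per1 (4671 bases) and Per2 (5833 bases) are of like length.

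The ratio of Per3 to Per2 was lower in every TGF-β1 library, at 0.438 times the unstimulated value in control and 0.431 times in Smad7-KO cells, without overlap. The ratio of Cry1 to Cry2 was higher in Smad7-KO cells, by 0.64 without and 0.59 with TGF-β1 on the log2 scale, also without overlap. Nr1d1 over Nr1d2 was 0.304 to 0.803 without and 0.831 to 0.868 with TGF-β1 in control cells, and 0.373 to 0.474 and 0.501 to 0.523 in Smad7-KO cells. The width of the first range came from unstimulated control library 2, the only one at 0.304. Clock over Arntl was at 0.536 (control) and 0.454 (Smad7-KO) times the unstimulated value with TGF-β1, and Nr1d1 over Arntl at 0.711 and 0.504 times, with overlap in control cells for the latter.

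**Figure D4:**
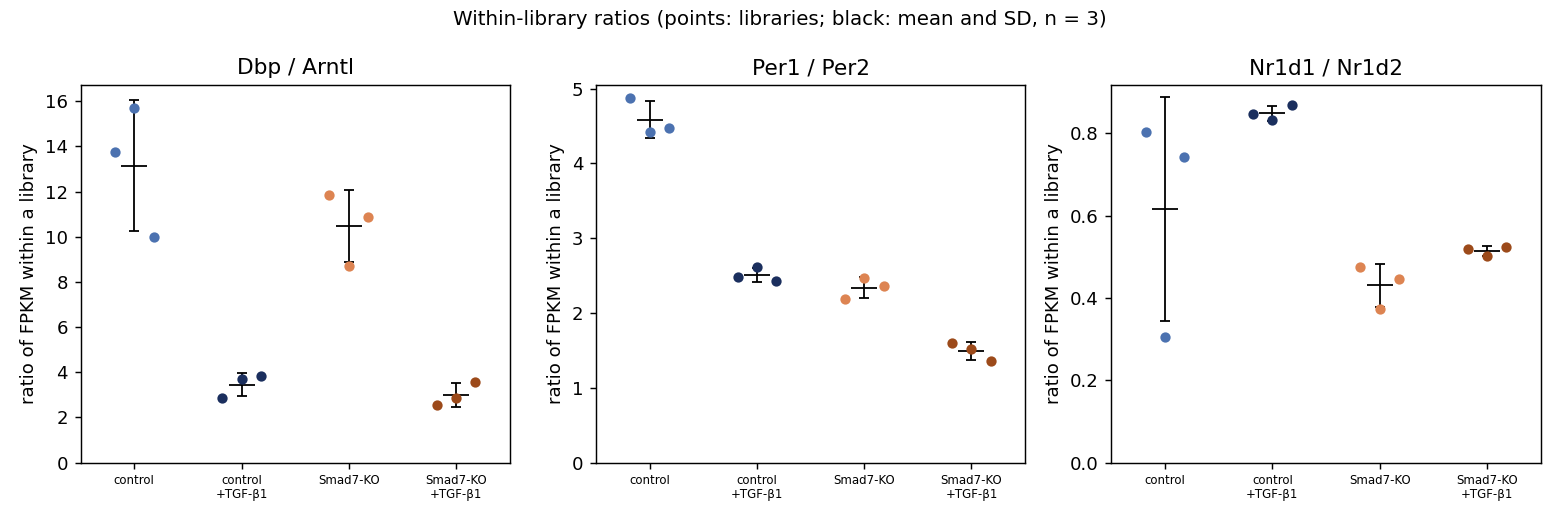
Ratio of FPKM values within each library (y axis, from 0) for Dbp over Arntl, Per1 over Per2 and Nr1d1 over Nr1d2, with points for libraries and black bars for the mean and SD over 3 libraries. Dbp over Arntl is below 4 in every TGF-β1 library and at least 8.70 in every unstimulated one, and Per1 over Per2 is highest in unstimulated control cells.

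Beyond the 10 core genes, 10 further genes of the accessory loops were tested. With TGF-β1 2 of these rose, 0 fell and 8 did not pass in each genotype. Of all tested genes 5.04% rose and 3.33% fell in control cells, and 5.33% rose and 4.9% fell in Smad7-KO cells. The 2 accessory-loop genes that rose were Bhlhe40 (Dec1) and Bhlhe41 (Dec2), repressors that compete for E-boxes with the Arntl and Clock pair. Bhlhe40 was at 35.4, 35.1 and 38.1 CPM in unstimulated and 98.3, 105 and 106 CPM in TGF-β1 control libraries, a 2.85-fold higher level (log2 fold change 1.51 ± 0.0949, edgeR adjusted p = 3.64e-06). In Smad7-KO cells it rose 3.48-fold, from 26.7, 30.3 and 31.0 to 101, 107 and 98.1 CPM. Bhlhe41, whose E-box is shown above, rose 1.71-fold in control cells, from 89.6, 89.1 and 80.4 to 149, 141 and 152 CPM (edgeR adjusted p = 1.83e-04), and 1.67-fold in Smad7-KO cells. All 4 calls held in all 22 other settings.

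Smad7 loss without stimulation raised 2 and lowered 2 of those 10 genes, beside 12.1% of all tested genes raised and 13.7% lowered. Cipc, an inhibitor of the Clock protein, was at 32.3, 20.9 and 33.7 CPM in control and 50.1, 46.7 and 49.0 CPM in Smad7-KO libraries, higher by 0.75 ± 0.162 without overlap (edgeR adjusted p = 0.009), and it was called in 21 of 22 other settings. Nfil3, the D-box repressor that opposes Dbp, fell by 0.63 ± 0.208 on the log2 scale (edgeR adjusted p = 0.0462), which held in 7 of 22 other settings (-0.81 to -0.39). Bhlhe40 fell by 0.30 ± 0.094 and Bhlhe41 rose by 0.31 ± 0.089 (edgeR adjusted p = 0.0376 and 0.0291), which held in 6 and 13 of 22 settings, and Bhlhe41 turned to -0.11 with the length trend removed. With TGF-β1 0 of the 10 passed for Smad7 loss, beside 5.72% of all tested genes raised and 7.23% lowered. The lowest edgeR adjusted p was 0.0632, for Bhlhe41, and Npas2, Tef and Ciart also had an unadjusted p under 0.05.

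Of 12 genes that set the stability of clock proteins, Usp2, a deubiquitinase that acts on clock proteins, was the one that moved most. It was at 8.34, 7.48 and 8.31 CPM in unstimulated and 25.0, 24.5 and 27.6 CPM in TGF-β1 control libraries, and at 7.78, 7.64 and 8.68 against 34.5, 32.6 and 35.8 CPM in Smad7-KO cells. It rose 3.19-fold and 4.27-fold (edgeR adjusted p = 3.92e-06 and 4.27e-07), both calls held in all 22 other settings, and stimulated and unstimulated libraries did not overlap. Under TGF-β1 it was also 0.42 ± 0.103 higher in Smad7-KO than control cells (edgeR adjusted p = 0.0216), a call that held in 15 of 22 settings. Its interaction of 0.42 ± 0.15 did not pass (edgeR adjusted p = 0.98). Of the other 11 genes, TGF-β1 moved none in control cells and only Csnk1e, a kinase of the Period proteins, in Smad7-KO cells (0.31 ± 0.0847, edgeR adjusted p = 0.0398), which held in 8 of 22 settings. Smad7 loss moved Csnk2b alone, without stimulation, by -0.68 ± 0.229 (edgeR adjusted p = 0.0484, held in 4 of 22 settings, -0.89 to -0.12). Of all tested genes 8.37% and 10.2% changed with TGF-β1 in control and Smad7-KO cells. With Smad7 loss 25.8% changed in unstimulated and 13% in stimulated cells.

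Of 12 cofactors, 3 rose and 1 fell with Smad7 loss in unstimulated cells, a comparison in which 25.8% of all tested genes changed. The acetyltransferases Ep300 and Crebbp had log2 fold changes of 1.07 ± 0.346 and 0.70 ± 0.226, the deacetylase Sirt1 0.38 ± 0.119, and Hdac3, which works with the Rev-erb receptors, -0.45 ± 0.137 (edgeR adjusted p 0.0362 to 0.0433). These calls held in 8 to 11 of 22 settings, over which the values ran from 0.65 to 1.60 for Ep300, 0.16 to 1.04 for Crebbp, 0.18 to 0.48 for Sirt1 and -0.59 to -0.31 for Hdac3. Sirt1 was also higher in stimulated Smad7-KO cells, by 0.46 ± 0.119 (edgeR adjusted p = 0.0264, held in 15 of 22 settings). It was the only cofactor called in that comparison, in which 13% of all tested genes changed. With TGF-β1 none passed in control cells (8.37% of all tested genes changed), and in Smad7-KO cells 1 rose and 1 fell (10.2% changed).

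Among 7 genes that the clock drives was Nampt, an enzyme on the path to the NAD+ used by Sirt1. Nampt was at 71.4, 80.1 and 72.2 CPM in control and 98.7, 105 and 109 CPM in Smad7-KO libraries without stimulation. The libraries did not overlap (log2 fold change 0.48 ± 0.097, edgeR adjusted p = 0.00618), and the call was lost in 2 of 22 settings, 1 of them the removal of the length trend (0.25). With TGF-β1 it was at 81.4, 75.5 and 90.7 against 144, 138 and 139 CPM, a 1.70-fold higher level (0.77 ± 0.0972, edgeR adjusted p = 0.000684) that held in all 22 settings. TGF-β1 itself raised Nampt in Smad7-KO cells (0.43 ± 0.0967, edgeR adjusted p = 0.0141, held in 18 of 22 settings). The other 6 of the 7 passed in neither Smad7-KO nor either TGF-β1 comparison. Over all tested genes 25.8% changed with Smad7 loss in unstimulated and 13% in stimulated cells. With TGF-β1 8.37% changed in control and 10.2% in Smad7-KO cells.

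**Figure D5:**
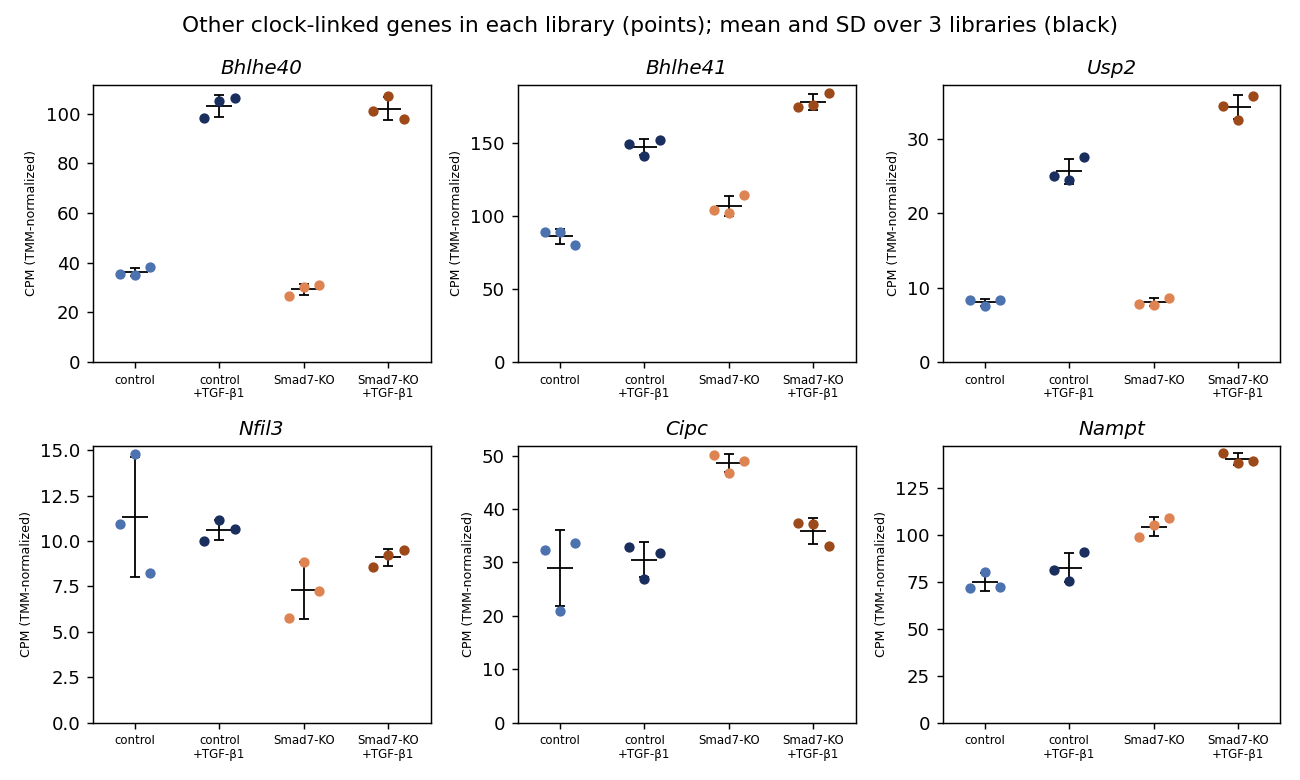
Level of 6 clock-linked genes in every library (CPM scaled by TMM, y axes from 0), with points for libraries and black bars for the mean and SD over 3 libraries. Bhlhe40, Bhlhe41 and Usp2 are higher in all TGF-β1 libraries of both genotypes, and Nampt is higher in all Smad7-KO libraries of both states of stimulation.

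Glucocorticoids and serum both reset fibroblast clocks, so genes that respond to each were counted. Of 8 glucocorticoid-responsive genes, TGF-β1 raised 2 and lowered 2 in each genotype. Of all tested genes it raised 5.04% and lowered 3.33% in control cells, and raised 5.33% and lowered 4.9% in Smad7-KO cells. Fkbp5, a chaperone of the glucocorticoid receptor, rose 4.59-fold in control and 4.26-fold in Smad7-KO cells, and the kinase Sgk1 rose 4.05-fold and 6.10-fold, whereas the metallothionein Mt2 and the phosphatase Dusp1 fell (log2 fold changes -1.85 and -1.48 in control cells), so the members moved apart. Smad7 loss lowered Pdk4 and Dusp1 in both states and raised Sgk1 with TGF-β1 (0.43 ± 0.109, edgeR adjusted p = 0.0242, held in 15 of 22 settings). Over all tested genes Smad7 loss lowered 13.7% and raised 12.1% in unstimulated cells, and lowered 7.23% and raised 5.72% in stimulated cells. Of 11 serum- and cyclic AMP-responsive genes, Junb and Egr2 rose and Sik1 fell with TGF-β1 in control cells, and Egr1 joined those that rose in Smad7-KO cells. Smad7 loss lowered Egr1 (-1.28 ± 0.174) and Nr4a1 (-1.33 ± 0.148) in unstimulated cells and Nr4a1 in stimulated cells (-1.19 ± 0.147). Per1 and Per2, which the same signals induce, had no call in the main fit. With TGF-β1 Per2 was 0.62 higher in control and 0.54 higher in Smad7-KO cells, and both values passed with the length trend removed. Whether the clock was reset was not tested.

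The genes whose pattern over the 12 libraries was most like that of each called member were found by the root mean square difference in gene-centred log2 CPM, over all tested genes. For Arntl they were Runx2 (0.111), Rai14 (0.127) and Ets1 (0.139), and for Dbp Pik3ip1 (0.0847), Slc16a1 (0.138) and Gm10419 (0.140). For Per3 they were Dock11 (0.1004), Pcyt1a (0.103) and Vwa5a (0.105), and for Cry2 Cdnf (0.0809), 4632434I11Rik (0.0811) and Sh3bp4 (0.0836). Runx2, a transcription factor of bone and mesenchymal cells, rose 1.84-fold in control and 2.00-fold in Smad7-KO cells with TGF-β1. Pik3ip1, an inhibitor of phosphoinositide 3-kinase, fell by 44.2% in control cells and fell by 45.1% in Smad7-KO cells. Both genes were picked for their likeness over these same libraries, so their directions with TGF-β1 follow from that choice.

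Some members share bases with other annotated genes, and the library kit does not mark strand, so reads there cannot be assigned by strand. Per3 (chr4:151003652-151044665, GRCm38) lies within the interval of Camta1 on the same strand, which averaged 192 counts per library, and Camta1 had no call in any comparison. Dbp (chr7:45705088-45710155) shares 689 bases with Sphk2 on the opposite strand, for which TGF-β1 gave log2 fold changes of -0.15 ± 0.0868 in control and -0.060 ± 0.0867 in Smad7-KO cells, neither of which passed. Nr1d1 (chr11:98767932-98775333) shares 1075 bases with Thra, the thyroid hormone receptor gene, which fell with TGF-β1 in Smad7-KO cells by 0.51 ± 0.137 (edgeR adjusted p = 0.0358). Cry2 (chr2:92403646-92434043) holds D930015M05Rik on the opposite strand, with 10.5 counts per library on average.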

How the data were processed

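RNA-Seq of poly-A RNA was performed on 12 libraries (100-bp paired-end reads). The submitters' processing notes name CASAVA, TopHat2 2.0, Cufflinks 2.1.1, HTSeq 0.6.1 and the builds mm10 and GRCm38.p6, without roles. The authors deposited a table of read counts per gene as whole numbers, not normalized, and a table of FPKM values, scaled by gene length and library total. No column of comparisons was used.

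Counts were analysed in R 4.3.3 with edgeR 4.0.16. Genes were kept by filterByExpr (minimum count 10), libraries were scaled by TMM, and a robust quasi-likelihood model of 4 conditions was fitted to all 12 libraries. P values were adjusted by Benjamini-Hochberg over 15150 genes and called at 0.05 or less. Values after ± are SE for fold changes and SD (n = 3) for levels, and intervals are 95%, from the t distribution with the degrees of freedom of the quasi-likelihood test. Alternatives used DESeq2 1.42.0, limma 3.58.1 on log2(FPKM + 1) and log2(FPKM + 0.1) where FPKM reached 1 in 3 or more libraries, other scaling and filters, the replicate number as a block, a loess (span 0.3) on gene length, and each library left out. The scripts were tested on simulated data. The deposited FPKM values entered the levels per length and the ratios. Labels call the libraries of a condition independent samples, without naming cultures or animals, so p values measure the spread between these samples.

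The 10 members and all gene lists were chosen with earlier results of these data known. A few genes of the lists are not reported here and were left out of their counts. Named in the text are the members, genes of the other lists past the threshold in a Smad7-KO comparison (for accessory-loop and clock-driven genes also with TGF-β1), further TGF-β1 calls of the other lists chosen after their values were seen, the 3 most similar genes to each called member, and overlapping genes.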

Additional observations from a re-analysis of the deposited data

How the results depend on the processing

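Arntl and Dbp kept both TGF-β1 calls in all 22 settings, whereas the number of the 10 clock genes called in the other comparisons changed with the setting. For Smad7 loss in unstimulated cells 1 gene was called, against 3 by DESeq2 on all libraries, 0 by edgeR and 0 by DESeq2 fitted to the 6 compared libraries. The number was 2 by limma with either pseudocount, 3 with the length trend removed and 0 to 4 with 1 library left out. For Smad7 loss under TGF-β1 1 gene was called, against 2, 4 and 6 by the same 3 count fits and 0 without a filter. The number was 0 with the replicate block, 3 with the length trend removed and 0 to 4 with 1 library left out. For TGF-β1 in control cells 2 were called, against 4 by DESeq2 on all libraries, 4 with the length trend removed and 2 to 4 with 1 library left out (4 without unstimulated control library 2). For TGF-β1 in Smad7-KO cells 3 were called, against 5 by edgeR and 5 by DESeq2 on only those libraries and 2 to 4 with 1 left out. The interaction called 0 in every setting that could be fitted. Counts over all tested genes moved too, with the range over settings in brackets, at 3907 (660 to 7979) and 1962 (883 to 5798) for Smad7 loss without and with TGF-β1, 1268 (391 to 3449) and 1550 (985 to 3792) for TGF-β1 in control and Smad7-KO cells, and 3 (0 to 16) for the interaction. Apart from fits to fewer libraries, the cause was not tested. Counts of members moved beside these totals, so they are not read as a result about the clock genes.

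Of 1080 values of members under other settings, 979 kept their direction and side of the threshold, 50 passed newly, 20 lost the call and 31 turned direction. With the length trend removed, the log2 fold change for Smad7 loss turned to 0.086 (Dbp) and -0.11 (Bhlhe41) in unstimulated and 0.14 (Dbp) in stimulated cells, that for TGF-β1 in control cells to -0.088 (Clock), and the interaction to 0.041 (Clock), 0.057 (Per2), 0.029 (Per3) and 0.020 (Nr1d2). Clock in control cells with TGF-β1 also turned to -0.0012 by DESeq2 and to -0.0023 with its size factors, Nr1d2 to 0.13 without both control libraries, and the Arntl interaction to -0.0028 by limma on log2(FPKM + 0.1) and to -0.12 without both control libraries. Leaving out 1 library turned Nr1d1 (-0.49 to 0.11) for Smad7 loss in unstimulated and Dbp (-0.12 to 0.048) in stimulated cells, Clock (-0.24 to 0.48) for TGF-β1 in control cells, and Clock (-0.19 to 0.031) and Nr1d1 (-0.038 to 0.080) for TGF-β1 in Smad7-KO cells. It also turned the interactions of Arntl (-0.043 to 0.17), Clock (-0.58 to 0.15), Per1 (-0.064 to 0.39), Per2 (-0.32 to 0.15) and Per3 (-0.35 to 0.036). None of these values had passed the threshold except that of Bhlhe41.

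Libraries of the same replicate number had deviations that correlated at -0.619 to 0.764, over 0.1 in 7 of 18 pairs. Those of other numbers correlated at -0.805 to 0.801, over 0.1 in 11 of 36 pairs. These deviations also hold each library's trend on gene length, so they cannot show whether the numbers mark a shared culture or day. With the replicate block 1, 0, 2, 3 and 0 members were called for Smad7 loss without and with TGF-β1, for TGF-β1 in control and then Smad7-KO cells, and for the interaction, and Cry2 alone lost its call among members.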
